A study of Homo sapiens with 2 samples.

Results

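The let-7 family was followed in K562 cells, a human erythroleukaemia line, after transduction with 1 of 2 lentiviruses. The members are the main (5p) arms of let-7a, b, c, d, e, f, g and i with that of miR-98, the arm that is loaded as the active strand. They were picked by name, though with earlier results of these data known, and 9 were found among 2218 listed mature miRNAs. One small RNA library came from K562 cells carrying a GFP lentivirus, the control, and 1 from K562 cells carrying a lentivirus that overexpresses QKI5, the isoform of the RNA-binding protein Quaking that resides in the nucleus. Both groups thus share the line and a lentiviral transduction. The sources used here do not say whether the cells were a clone or a pool, nor how long after transduction they were taken. The question was which miRNAs differ in level when QKI5 is overexpressed.

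The let-7 miRNAs silence messenger RNAs that promote growth and an immature cell state, among them those of HMGA2, RAS proteins and MYC. They are scarce in stem cells, where LIN28 proteins bind let-7 precursors and block their maturation, and they accumulate as cells differentiate. In red cell precursors let-7 is known for its link, through LIN28B, to the switch from fetal to adult haemoglobin. Quaking regulates splicing and RNA stability through ACUAA-type sites and has been tied to the processing of some primary miRNAs.

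Levels are reads per 1000000 reads of the library (RPM). The GFP library rested on 23262340 reads and the QKI5 library on 6553945, so the former was 3.55 times as deep. With 1 library per group no difference below has a replicate check, and no p-value for QKI5 is given. Intervals are 95% exact binomial intervals from the read counts and cover counting error only. The 4 erythroid marker miRNAs summed to 3141 RPM with QKI5 and 3907 RPM with GFP, but differed in direction. miR-451a (ratio 0.782) and miR-144-3p (0.535) were lower with QKI5, while miR-144-5p (1.61) and miR-486-5p (1.15) were higher. The 2 blood cell markers, miR-142-3p and miR-223-3p, summed to 20267 RPM with QKI5 and 18330 RPM with GFP. Markers of liver and pluripotent cells had at most 2 reads, and miR-122-5p and the 3 listed miR-302 markers were at 0 in the QKI5 library. Of the muscle markers, miR-133a-3p reached 0.915 RPM and miR-206 had 0 reads with QKI5. The muscle entry hsa-miR-1, listed without an arm, had 13 reads with QKI5 (1.98 RPM) and 4 with GFP (0.172 RPM). Its part in the results below was not tested. The 3 epithelial markers together reached 10.7 and 4.47 RPM. Of the neuronal markers miR-124-3p had at most 1 read, whereas miR-9-5p was at 332 and 378 RPM. The QKI transcript was not analysed here, so overexpression was not checked from these data.

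The mature sequences are shown because the members differ by few bases, which bears on how reads were told apart and on what they share. RefSeq (GRCh38.p14) gave a sequence for all 9. Capitals mark the seed, bases 2 to 8 from the 5′ end, the stretch that pairs with targets.
hsa-let-7a-5p: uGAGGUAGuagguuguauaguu
hsa-let-7b-5p: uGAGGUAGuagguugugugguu
hsa-let-7c-5p: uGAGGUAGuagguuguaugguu
hsa-let-7d-5p: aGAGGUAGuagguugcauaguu
hsa-let-7e-5p: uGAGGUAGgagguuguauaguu
hsa-let-7f-5p: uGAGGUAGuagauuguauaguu
hsa-let-7g-5p: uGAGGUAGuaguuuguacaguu
hsa-let-7i-5p: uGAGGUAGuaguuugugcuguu
hsa-miR-98-5p: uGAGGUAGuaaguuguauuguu

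All 9 are 22 bases long and have the same seed. Whether the members were captured equally well in the libraries was not tested, so levels of different members are compared as reads only. Counted from the 5′ end against let-7a-5p, a single substitution marks let-7e-5p (U9G), let-7f-5p (G12A) and let-7c-5p (A19G). Pairs of substitutions mark let-7b-5p (A17G and A19G), let-7d-5p (U1A and U16C), let-7g-5p (G12U and U18C) and miR-98-5p (G11A and A19U). let-7i-5p is the most distant, with 4 (G12U, A17G, U18C and A19U). The GC content of the members was 31.8% to 45.5%, below the median of 47.6% over the 358 of the 400 most abundant miRNAs with a sequence. Across these 358 the QKI5 over GFP log2 ratio was higher by 0.27 per 10 percentage points of GC, a description across miRNAs of 2 libraries. let-7f-5p and miR-98-5p have the same GC content, 31.8%. The sources used here do not say how the authors assigned reads that match several members.

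The let-7 family as a whole was 1.92-fold higher in the QKI5 library (1.87 to 1.96). Its 9 members summed to 1686 RPM with QKI5, from 11051 reads, and to 880 RPM with GFP, from 20473 reads. The family was a small part of the miRNA pool in both. It held 0.283% of the reads on listed miRNAs with QKI5 (Wilson 95% interval 0.278% to 0.289%) and 0.133% with GFP (0.131% to 0.135%). All 9 members had a positive log2 ratio of QKI5 over GFP, against 58.0% of the 400 most abundant miRNAs and 65.2% of those ranked 401 to 600. Their median was 1.16, on log2(RPM + 0.153), against 0.21 for the 400 and 0.38 for the ranks below. These members were known to lie high from earlier results of these data.

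A log2 ratio of at least 1 was reached by 5 of the 9, against 20.8% of the 400 most abundant miRNAs and 22.4% of the ranks 401 to 600. No member was at least 2-fold lower, where the shares were 7.25% and 7.46%. The 5 were let-7b, d, e and i and miR-98. Only 2 of them, let-7e and let-7i, were among the 400, and the other 3 rest on 14 to 31 reads per library. With quantile normalization let-7d and let-7i were under 2-fold, at log2 ratios of 0.77 and 0.85. let-7i was also under it centred on the trimmed mean (0.94), and let-7d with pseudocounts of 1 RPM (0.79) and 10 times 0.153 RPM (0.64). The counting interval lay wholly above 2-fold for let-7e-5p, let-7b-5p and miR-98-5p, against 14.8% of the 400 and 10.4% of the ranks 401 to 600. It lay wholly above 1 for all 9, where the shares were 48.2% and 27.9%. At 1.5-fold, 8 of the 9 were higher, against 34.0% of the 400. An exact binomial test of the reads, which compares these libraries and not the conditions, called 8 of the 9 higher, all but let-7c-5p. It called 14.5% of the 1995 miRNAs with a read in either library higher (Benjamini-Hochberg adjusted over all of them). That set is not matched to the members in level. It reaches down to a mean of 0.0215 RPM, against 1.48 RPM for the scarcest member, let-7d-5p.

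**Figure D1:**
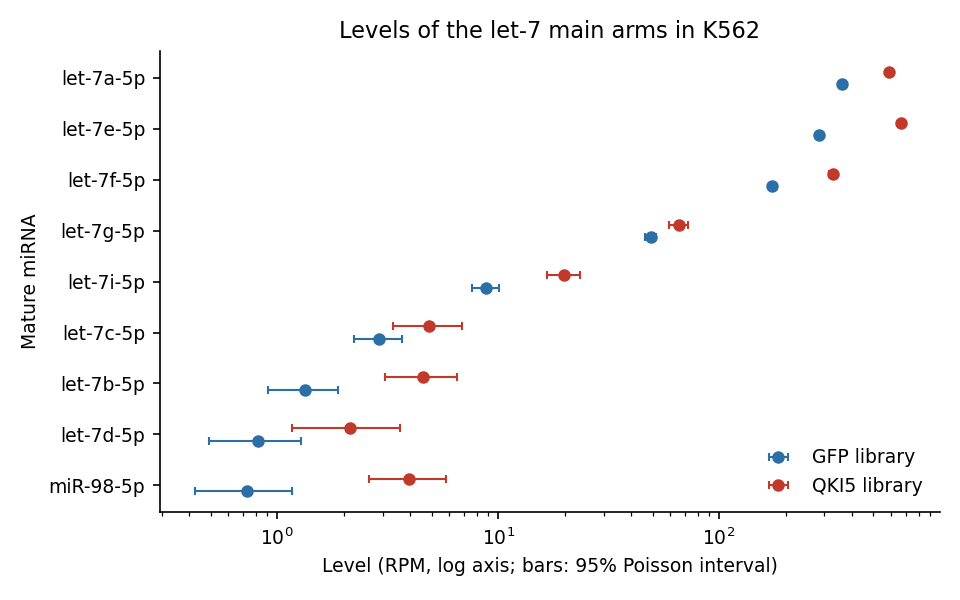
Level of each let-7 main arm in the GFP and the QKI5 library, in RPM on a log axis, with 95% Poisson intervals of the read count; each point is 1 library. Every member lies to the right in the QKI5 library, from let-7a-5p (588 against 361 RPM) down to miR-98-5p (3.97 against 0.731 RPM), and the intervals of the members below let-7i-5p are wide.

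Most let-7 reads came from let-7a, let-7e and let-7f, which made up 94.0% of the family's reads with QKI5 and 92.8% with GFP. let-7e-5p was at 670 RPM in the QKI5 library (4388 reads) and 282 RPM in the GFP library (6567 reads). Of the 5 members among the 400 most abundant miRNAs it had the highest ratio, 2.37 (2.28 to 2.46). let-7a-5p, which is encoded by 3 hairpins of identical mature sequence, was at 588 RPM with QKI5 (3854 reads) and 361 RPM with GFP (8394 reads), a ratio of 1.63 (1.57 to 1.69). let-7f-5p, encoded by 2 hairpins, was at 328 RPM with QKI5 (2147 reads) and 173 RPM with GFP (4031 reads), a ratio of 1.89 (1.79 to 1.99). Each of the 3 was thus higher with QKI5, but let-7e alone of them passed 2-fold on the deposited scale. let-7f-5p also passed it when rescaled to the listed miRNAs (log2 ratio 1.07) and with a linear GC trend removed (1.35), as did let-7a-5p with the GC trend removed (1.01).

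let-7g and let-7i, each made from a single hairpin, were of intermediate level. let-7g-5p was at 65.6 RPM with QKI5 (430 reads) and 49.1 RPM with GFP (1142 reads), the lowest ratio of the family at 1.34 (1.19 to 1.49). let-7i-5p was at 19.8 RPM with QKI5 (130 reads) and 8.81 RPM with GFP (205 reads), a ratio of 2.25 (1.79 to 2.82). let-7g thus lay below the summed family's ratio of 1.92 beyond counting error, while the interval of let-7i held it.

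let-7b, c and d and miR-98 were scarce, together 0.923% of the family's reads with QKI5 and 0.655% with GFP. let-7c-5p was at 4.88 RPM with QKI5 (32 reads) and 2.88 RPM with GFP (67 reads), a ratio of 1.70 (1.08 to 2.62). let-7b-5p was at 4.58 RPM with QKI5 (30 reads) and 1.33 RPM with GFP (31 reads), a ratio of 3.43 (2.01 to 5.87). let-7d-5p was at 2.14 RPM (14 reads) and 0.817 RPM (19 reads), a ratio of 2.62 (1.21 to 5.50). These 3 kept to the direction of the abundant members with much wider intervals. miR-98-5p was at 3.97 RPM with QKI5 (26 reads) and 0.731 RPM with GFP (17 reads), the highest ratio of the family at 5.43 (2.84 to 10.7). Summed, the 4 scarce members were 2.70-fold higher with QKI5 (2.07 to 3.52).

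**Figure D2:**
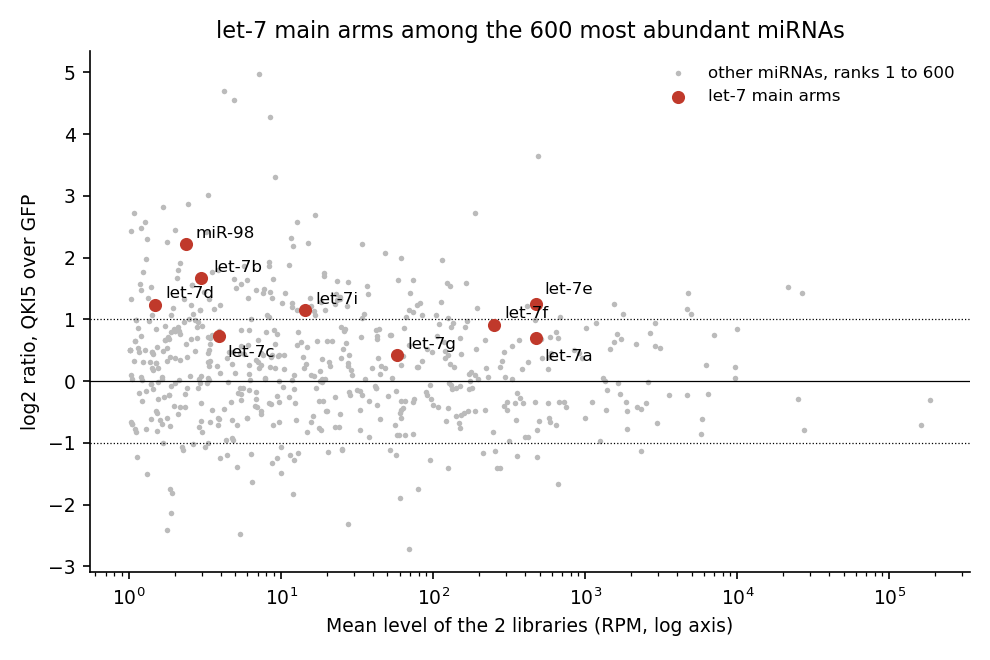
log2 ratio of QKI5 over GFP, on log2(RPM + 0.153), against the mean level of the 2 libraries on a log axis, for the let-7 main arms (red) and the other miRNAs of ranks 1 to 600 (grey); dotted lines mark 2-fold. All 9 let-7 points lie above 0, from 0.42 (let-7g) to 2.22 (miR-98), inside the upper part of the grey cloud.

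The make-up of the family differed between the libraries. let-7a-5p was its most abundant member with GFP, at 41.0% of the family's reads (40.3% to 41.7%), and let-7e-5p came next with 32.1% (31.4% to 32.7%). With QKI5 their order was turned, at 34.9% (34.0% to 35.8%) for let-7a-5p and 39.7% (38.8% to 40.6%) for let-7e-5p. let-7f-5p had 19.7% with GFP (19.2% to 20.2%) and 19.4% with QKI5 (18.7% to 20.2%), and let-7g-5p had 5.58% and 3.89%. There were 1.14 let-7e-5p reads per let-7a-5p read with QKI5 (1.09 to 1.19) and 1.28 let-7a-5p reads per let-7e-5p read with GFP (1.24 to 1.32). Below let-7i-5p, neighbouring levels could not be told apart by their counting intervals in either library, except let-7c-5p over let-7b-5p with GFP (2.16 times as many reads, 1.39 to 3.42).

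**Figure D3:**
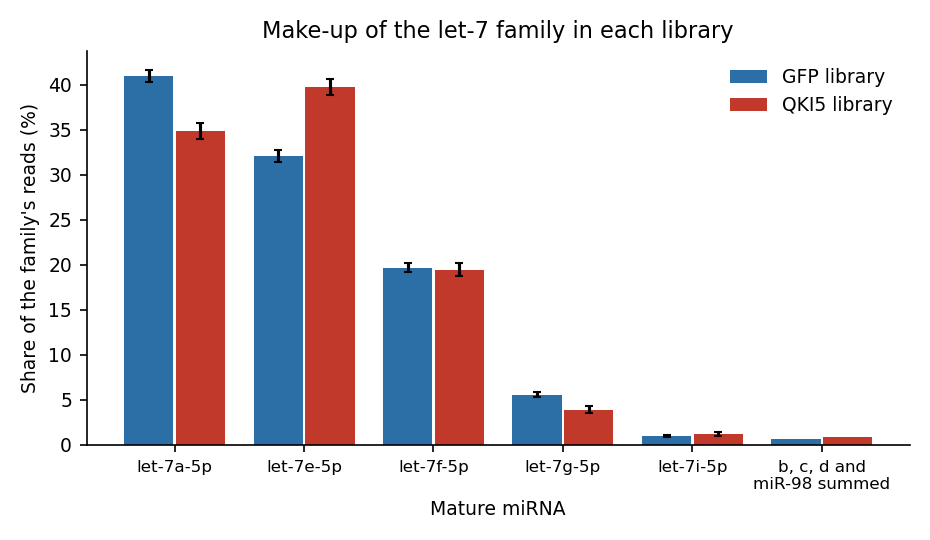
Share of the let-7 family's reads held by each main arm in the GFP and the QKI5 library, in percent with Wilson 95% intervals; the 4 scarce members are summed and carry no interval. let-7e-5p goes from 32.1% to 39.7% and let-7a-5p from 41.0% to 34.9%, while let-7f-5p is at 19.7% and 19.4%.

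Ratios of reads between members do not change when a whole library is multiplied by a factor, though quantile normalization does change them. Of the 36 pairs of members, 17 had a ratio that differed between the libraries beyond counting error, with no adjustment for the number of pairs. The same share over pairs of other miRNAs was not computed, so the 17 are not shown to be particular to the family. The number of let-7e-5p reads per let-7a-5p read was 1.46 times as high with QKI5 as with GFP (1.38 to 1.54). Against let-7f-5p the factor for let-7e-5p was 1.25 (1.18 to 1.34), and against let-7g-5p it was 1.77 (1.58 to 2.0). For let-7e-5p against let-7i-5p it was 1.05, with an interval of 0.839 to 1.33. miR-98-5p stood apart from let-7f-5p by a factor of 2.87 (1.496 to 5.65), but not beyond counting error from let-7b-5p (1.58, 0.668 to 3.77). Ordered by their QKI5 over GFP ratio, 7 of the 8 neighbouring pairs had an interval that held 1. The exception was the lowest pair, let-7a-5p over let-7g-5p (1.22, 1.08 to 1.37). Neighbours in this order are close in ratio by construction, so the count does not show whether members changed alike.

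The scarce members were also set against the abundant member nearest to them in sequence. There were 0.830 let-7c-5p reads per 100 let-7a-5p reads with QKI5 and 0.798 with GFP. These members differ by 1 base, and the factor between the libraries was 1.04 (0.659 to 1.61). The number of let-7d-5p reads per 100 let-7a-5p reads was 0.363 and 0.226, a factor of 1.60 (0.744 to 3.38). For let-7b-5p, which is 2 bases from let-7a-5p, there were 0.778 and 0.369, a factor of 2.11 (1.23 to 3.61). For miR-98-5p, also 2 bases away, there were 0.675 and 0.203, a factor of 3.33 (1.74 to 6.55). The fraction relative to let-7a thus differed between the libraries beyond counting error for let-7b and miR-98, while the intervals for let-7c and let-7d held 1. The part of misread or shared let-7a reads in the scarce members was not tested.

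Human let-7 genes lie singly or in clusters, and a cluster shared with other miRNAs allows members to be compared with neighbours from the same region. Positions are those of GRCh38 from GENCODE 29. The authors' build was hg19, and the deposited table has no positions. The hairpin of let-7e, chr19:51692786-51692864 on the plus strand, lies in an intron of SPACA6, 104 bases after that of miR-99b and 389 bases before that of miR-125a. It is printed because let-7e led the abundant members, with the mature 5p arm in capitals.
MIRLET7E: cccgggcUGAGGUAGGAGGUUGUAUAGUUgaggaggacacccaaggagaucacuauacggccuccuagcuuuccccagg

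Both neighbours of let-7e were also higher with QKI5, by less. miR-99b-5p had levels of 1881 (QKI5) and 1209 RPM (GFP), a ratio of 1.56 (1.52 to 1.59). miR-125a-5p was at 3664 and 2518 RPM, a ratio of 1.45 (1.43 to 1.48). The number of let-7e-5p reads per 100 miR-99b-5p reads was 35.6 with QKI5 and 23.4 with GFP, a factor of 1.52 (1.46 to 1.59). Against miR-125a-5p the factor was 1.63 (1.56 to 1.70), while miR-99b-5p against miR-125a-5p gave 1.07 (1.04 to 1.10). let-7e therefore differed from its neighbours more than they did from each other. The 3p arm of miR-125a, at 32.0 and 13.3 RPM, had a ratio of 2.40 (2.01 to 2.87), close to that of let-7e-5p, and miR-99b-3p had 1.58 (1.31 to 1.89).

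The hairpin of let-7c, chr21:16539828-16539911 on the plus strand, lies in an intron of MIR99AHG, 658 bases after that of miR-99a. Here let-7c-5p and both arms of miR-99a went apart. miR-99a-5p had levels of 93.8 (QKI5) and 147 RPM (GFP), 1.57-fold lower (1.44 to 1.71), and miR-99a-3p was 2.46-fold lower (1.44 to 4.52). let-7c-5p was higher, on 32 and 67 reads, and its reads per 100 miR-99a-5p reads were 5.20 and 1.96, a factor of 2.66 (1.67 to 4.15). It was the member that the exact binomial test did not call. The part of let-7a reads in it was not tested, so its ratio may not be that of this region alone. miR-125b-5p, which has hairpins in the let-7c region and in that of let-7a-2, was at 83.9 and 71.6 RPM, a ratio of 1.17 (1.06 to 1.29). For let-7c-5p against miR-125b-5p the factor was 1.45, with an interval that held 1 (0.908 to 2.26). miR-100-5p, the neighbour of let-7a-2 in an intron of MIR100HG on chromosome 11, had only 7 and 29 reads, with a ratio of 0.857 (0.317 to 2.0).

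let-7f-2 and miR-98 lie 850 bases apart in an intron of HUWE1 on the minus strand of chromosome X, at chrX:53557192-53557274 and chrX:53556223-53556341. The ratio of miR-98-5p exceeded that of let-7f-5p, as given above, although let-7f-5p is also made from let-7f-1. On chromosome 9, let-7a-1 (chr9:94175957-94176036), let-7f-1 (chr9:94176347-94176433) and let-7d (chr9:94178834-94178920) share an intron of the noncoding gene AL158152.2, with gaps of 310 and 2400 bases. let-7a-3 (chr22:46112749-46112822) and let-7b (chr22:46113686-46113768) lie 863 bases apart within exons of MIRLET7BHG on chromosome 22, with miR-4763 between them. miR-4763-5p had 3 reads with QKI5 and 1 with GFP, and miR-4763-3p had 0 and 1. let-7g (chr3:52268278-52268361) lies in an intron of WDR82 and let-7i (chr12:62603686-62603769) in an intron of the noncoding gene AC048341.1, and neither has a neighbour from these lists within 100000 bases on its strand.

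**Figure D4:**
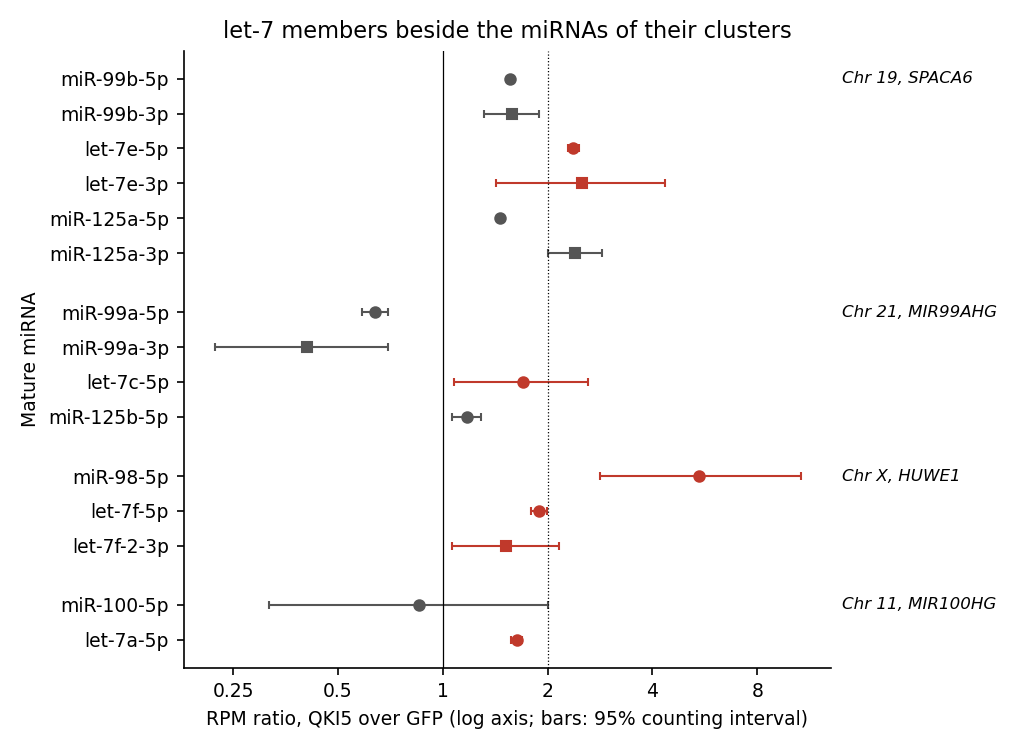
RPM ratio of QKI5 over GFP on a log axis, with 95% counting intervals, for let-7 members and miR-98 (red) and the other miRNAs of their clusters (grey), grouped by region; circles are 5p arms and squares 3p arms, the solid line marks 1 and the dotted line 2. let-7e-5p (2.37) lies above miR-99b-5p (1.56) and miR-125a-5p (1.45), and let-7c-5p (1.70) lies on the other side of 1 from miR-99a-5p (0.638). let-7a-5p, let-7f-5p and miR-125b-5p are each drawn under a single region but are also made from hairpins elsewhere. Their ratios are thus not those of that region alone.

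The 3p arms of these hairpins, usually the discarded strands, were rare. Together the 11 listed 3p arms had 88 reads with QKI5 and 179 with GFP, at 13.4 and 7.69 RPM, a ratio of 1.74 (1.34 to 2.26). There were 126 main arm reads per 3p read with QKI5 and 114 with GFP. let-7e-3p was at 3.66 RPM with QKI5 (24 reads) and 1.46 RPM with GFP (34 reads), a ratio of 2.51 (1.42 to 4.35), so both arms of let-7e were higher. There were 183 let-7e-5p reads per let-7e-3p read with QKI5 and 193 with GFP, a factor of 0.947 (0.544 to 1.67). For let-7f the 5p reads per 3p read were 44.7 and 35.4 (factor 1.26, 0.891 to 1.82). A change of the arm ratio was not detectable at this depth for either.

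The 3p arms also separate hairpins whose 5p arms are identical. let-7f-2-3p was at 7.32 RPM with QKI5 (48 reads) and 4.81 RPM with GFP (112 reads), a ratio of 1.52 (1.06 to 2.15). let-7f-1-3p had 0 and 2 reads, and 0 reads there leave room for up to 0.458 RPM. let-7a-3p, made from let-7a-1 and let-7a-3, was at 1.37 RPM (9 reads) and 0.602 RPM (14 reads), a ratio of 2.28 (0.871 to 5.66). let-7a-2-3p had 0 and 1 reads. Nearly all 3p reads of let-7f thus came from let-7f-2, but the share of let-7f-5p from each hairpin cannot be read from them. let-7b-3p had 3 reads in each library, let-7g-3p had 2 with QKI5 and 9 with GFP, and the 3p arms of let-7c, let-7d, let-7i and miR-98 had at most 2 reads in either.

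Precursors of let-7 fall into classes by how they mature. Those of let-7a-2, let-7c and let-7e (group I) have the usual end, and the rest (group II) receive a single uridine before Dicer cuts them. let-7a is made from both classes and was left out. The group I members, let-7c and let-7e, summed to 674 (QKI5) and 285 RPM (GFP), a ratio of 2.36 (2.28 to 2.46) that rests on let-7e. The 6 group II members summed to 424 and 234 RPM, a ratio of 1.81 (1.73 to 1.90), that rests on let-7f. Member ratios were 1.70 and 2.37 in group I, a pair whose interval held 1 (factor 1.40, 0.903 to 2.21), and 1.34 to 5.43 in group II, so the ranges overlapped.

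Hairpin sequences were searched for 2 kinds of motif on the RNA strand. The Quaking site, taken as ACUAAC or ACUAAU, was in 0 of the 12 hairpins of let-7 and miR-98 and in 1.54% of 1560 human hairpins in the RefSeq table. No match says only that these letters are not in these windows, which leave out the rest of the primary transcript. GGAG, the letters LIN28 proteins bind in let-7 precursors, was in 9 of the 12, against 43.4% of all hairpins. It was not found in MIRLET7A3, MIRLET7B and MIR98. The letters were counted anywhere in the hairpin. let-7b-5p and miR-98-5p, whose only hairpins lack GGAG, had QKI5 over GFP ratios of 3.43 and 5.43, from 61 and 43 reads in both libraries together. Members with a hairpin that has it ranged from 1.34 (let-7g-5p) to 2.62 (let-7d-5p). Among these, let-7a-5p, made in part from MIRLET7A3, had 1.63. The place of let-7b-5p in the family's order is not settled, since its intervals against let-7c, d, e and i held 1. The interval of miR-98-5p against let-7d-5p also held 1 (factor 2.08, 0.750 to 5.78). Its intervals against let-7a, c, e, f, g and i did not. The 2 hairpin classes are thus not fully separated by the counts. This search was chosen after the values were seen, and a match is a description of letters only. The hairpin of miR-98, the member with the highest ratio, is printed with its 5p arm in capitals.
MIR98: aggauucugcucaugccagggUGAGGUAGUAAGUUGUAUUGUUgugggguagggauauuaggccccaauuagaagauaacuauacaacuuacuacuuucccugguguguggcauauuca

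Other human miRNAs share the seed core, bases 2 to 7, but are not among the members followed here. They are shown to set the members' direction beside that of their seed relatives.
hsa-miR-4458: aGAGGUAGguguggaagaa
hsa-miR-202-3p: aGAGGUAUagggcaugggaa

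miR-4458 has the full let-7 seed, and miR-202-3p differs in base 8. miR-4458 was at 1.83 RPM with QKI5 (12 reads) and 2.49 RPM with GFP (58 reads), a ratio of 0.734 (0.359 to 1.38). miR-202-3p had 2 and 0 reads. Neither differed beyond counting error. miR-4500, with the same seed, is not among the listed names.

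The miRNAs whose ratio was nearest to that of the summed family, among the 200 most abundant and over 2 libraries, were miR-23a-3p (1.91), miR-378a-3p (1.91) and miR-210-3p (1.91). The first had levels of 3778 (QKI5) and 1973 RPM (GFP), and miR-210-3p, known for its induction by low oxygen, at 144 and 75.1 RPM. Likeness was the difference in log2 ratio, which was at most 0.0024 for these 3, and 12 miRNAs outside the let-7 lists lay within 0.1. With 2 libraries such likeness is a single number.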

How the data were processed

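The deposited table lists mature miRNAs with a value for each library. The file name says RPKM, yet the authors deposited RPM. In each column 100.0% of the values above 0 were whole multiples of a step of 1 read, the same for every miRNA, within 0.1 of a read (0.153 RPM for QKI5, 0.0430 RPM for GFP). Per the labels' protocols, small RNA was isolated with a miRNA kit and read on an Ion Proton instrument. Per the submitters' processing notes, Bowtie 0.12.3 and hg19 were used. The sources used here name neither the miRNA annotation nor the handling of reads that match several miRNAs.

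Log2 ratios were taken on log2(RPM + 0.153), which understates the ratios of low miRNAs. Folds in the text are plain RPM ratios with exact conditional (Clopper-Pearson) 95% intervals from recovered reads. Factors between pairs of miRNAs are odds ratios of reads with exact conditional intervals. The limit for a count of 0 is 3 reads per library. Reads carry no molecular identifiers, so intervals cover counting error only. "2-fold" means a log2 ratio of at least 1 in size, with all listed miRNAs as background by rank of mean RPM (ranks 401 to 600 hold 201 with a tie). An exact binomial test of recovered reads with Benjamini-Hochberg adjustment at 0.05, which compares these 2 libraries and not the conditions, called 426 of 1995 detected miRNAs. A dispersion could not be estimated with 1 library per group. Named miRNAs were the members, their 3p arms, the miRNAs of their clusters (miR-99a, miR-99b, miR-100, miR-125a, miR-125b and miR-4763), seed relatives and the 3 nearest in ratio. Members, lists and thresholds were chosen with earlier results of these data known. RefSeq (GRCh38.p14) had sequences for 1946 of 2218 listed miRNAs. let-7f-2-3p had none. Calculations ran in Python 3.11.15 with scipy 1.17.1, pandas 2.3.3 and numpy 2.4.6, and the calculations were tested on simulated data.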

Additional observations from a re-analysis of the deposited data

How the results depend on the processing

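All 9 members kept a positive log2 ratio under the 4 other scalings, the 2 other pseudocounts and removal of a linear GC trend. Of them, let-7b-5p, let-7e-5p and miR-98-5p stayed at least 2-fold higher under all 7 settings. The shares of the 400 most abundant miRNAs that stayed positive or past 2-fold under all 7 were not computed. With quantile normalization the members had a median log2 ratio of 0.85, against -0.01 for the 400. Rescaled to the listed miRNAs, their median was 1.31, against 0.36. The log2 ratio of the summed family was 0.94 as deposited, 1.09 rescaled to the listed miRNAs, 0.72 centred on the trimmed mean, 0.83 with the 10 most abundant miRNAs left out of the scaling, 0.77 without let-7e-5p, and 1.22 with the GC trend removed, which was chosen after seeing the data. Scaling moved the median log2 ratio of the 400 most abundant miRNAs from 0.21 to between -0.01 and 0.36. Higher ratios made up 74.1% of the 2-fold calls among the 400 as deposited, against 54.5% with quantile normalization, 56.7% centred on the trimmed mean and 81.2% rescaled to the listed miRNAs. The count of 5 members at least 2-fold higher was 3 with quantile normalization (13.5% of the 400) and 4 centred on the trimmed mean (14.75%). With either larger pseudocount 4 members passed, and the share of the 400 was not computed there. The count was 7 with the GC trend removed (17.3% of the 358 with a sequence) and 6 when rescaled to the listed miRNAs (23.8%). It was 1 of 4 members among the 200 most abundant, where the share was 15.0%, and 2 of 5 among the 400 (20.8%). At 1.5-fold it was 8, where the share of the 400 was 34.0%. By the exact binomial test it was 8, against 14.5% of all detected miRNAs, which are not matched in level. The family's share of reads was 0.169% (QKI5) and 0.0880% (GFP) of the library totals, and 1.11% and 0.625% of miRNA reads without the 10 most abundant. No paired analysis was possible because each group has 1 library, and for the same reason no replicate could be left out. Depth limits let-7b, c and d, miR-98 and all 3p arms, where 1 read more or less moves the ratio.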
